A study of Mus musculus with 2 samples.

Results

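The macrophages described here are the barcodes of MC38-OVA tumours that carried the most Retnla, Ear2 and Lyz1 RNA. They were chosen from a base of 10119 barcodes with at least 1 UMI (a molecule count) of Ptprc, which encodes CD45, with 0 UMIs of the T cell genes Cd3d, Cd3e and Trac together, and with at least 5 UMIs of C1qa, C1qb, C1qc and Lyz2 together. The 5% of this pooled base with the highest score, the UMIs of Retnla, Ear2 and Lyz1 summed per 10000 UMIs of the barcode, are called members. There were 506 members among 18460 barcodes in all, 335 from the Sitagliptin library and 171 from the Control library. The other 9613 base barcodes, 5349 Sitagliptin and 4264 Control, are called the rest. The 3 genes chose the members, so their levels are descriptions, and no value of members against the rest is a test.

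MC38-OVA cells are colon carcinoma cells of the mouse with ovalbumin added as a model antigen. WT mice with such tumours received a sitagliptin diet or a control diet, where sitagliptin is a drug taken by mouth that blocks the peptidase DPP4, and CD45+ tumour cells were enriched by MACS, a magnetic sort, and sequenced with the SeekOne DD 5′ droplet kit. There was 1 library per diet, the number of mice behind each is not stated, and the comparison is therefore of 2 libraries with no replicate. All intervals below are 95% intervals for counting error only.

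Retnla encodes RELMα (FIZZ1), a secreted cysteine-rich protein that in mice marks macrophages exposed to IL-4 and IL-13 through the receptor chain IL-4Rα and the transcription factor STAT6. Ear2 belongs to the eosinophil-associated ribonucleases, a mouse family of secreted RNases that myeloid cells other than eosinophils also express. Lyz1 is the lysozyme gene best known from Paneth cells of the mouse gut, and its neighbour Lyz2 is the lysozyme of macrophages and neutrophils. RELMα is also a known marker of the MHC class II-positive, CD226-positive macrophages of mouse serous cavities, which depend on the transcription factor IRF4.

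The 250 bases before the start of each rule gene are shown because these 3 genes define the members. Sequences are from RefSeq on GRCm38.p6 and read 5′ to 3′ on the strand of the gene. Capitals mark matches on either strand to a STAT6 motif (TTC and GAA with 4 free bases between them), to TTGCNNAA (a C/EBP motif) or to GAGGAA (a PU.1 motif), and no matches overlapped. The Retnla window is chr16:48842359-48842608 on the + strand, the Ear2 window is chr14:44102404-44102653 on the + strand and the Lyz1 window is chr10:117292869-117293118 on the − strand.
Retnla: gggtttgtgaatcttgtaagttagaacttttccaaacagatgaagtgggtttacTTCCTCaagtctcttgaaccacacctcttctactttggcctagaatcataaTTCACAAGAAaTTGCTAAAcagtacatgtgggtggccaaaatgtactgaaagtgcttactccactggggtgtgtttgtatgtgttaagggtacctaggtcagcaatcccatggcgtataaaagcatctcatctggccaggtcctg
Ear2: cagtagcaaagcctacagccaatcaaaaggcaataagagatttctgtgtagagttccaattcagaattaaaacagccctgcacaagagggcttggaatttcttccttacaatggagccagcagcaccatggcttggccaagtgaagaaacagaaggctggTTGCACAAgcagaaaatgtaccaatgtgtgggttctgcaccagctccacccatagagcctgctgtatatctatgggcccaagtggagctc
Lyz1: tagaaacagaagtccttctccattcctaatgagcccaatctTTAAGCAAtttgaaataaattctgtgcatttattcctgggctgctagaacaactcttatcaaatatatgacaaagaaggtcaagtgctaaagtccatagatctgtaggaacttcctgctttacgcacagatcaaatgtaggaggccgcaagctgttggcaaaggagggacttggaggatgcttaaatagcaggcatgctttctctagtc
The Retnla window held 1 match to each motif, with TTCACAAGAA beginning 145 bases before the start and TTGCTAAA beginning 134 bases before it. The Ear2 and Lyz1 windows each held 1 C/EBP match and no match to the other 2 motifs. Of 32851 windows of this length, 5.85% held the STAT6 motif, 9.56% the C/EBP motif and 23.3% the PU.1 motif.

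Lyz1 counts have to be read beside those of Lyz2, since the transcripts are near copies and the 5′ kit reads transcript starts. The first 50 transcribed bases of the pair differ at 1 base, G37A from Lyz1 to Lyz2, counted from 1 at the RefSeq start. Bases 21 to 50 are shown with that base in capitals.
Lyz1: tccagtcaccatgaagGctctcctgactct
Lyz2: tccagtcaccatgaagActctcctgactct
Over their longest protein-coding GENCODE M21 transcripts the 2 genes were 92.0% identical, and Ear2 and Ear1 were 96.1% identical. The assignment of reads shared by such copies is not stated, so the Lyz1 and Ear2 levels are uncertain to that extent. Ear1 and Ear6 had 0 UMIs in members of both libraries, and Ear10 had 1 UMI in Sitagliptin members and 0 in Control members.

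The lowest member scored 4.18 and the highest barcode outside scored 4.17, so the threshold cuts a continuous range. A score within 1.5 times of the threshold was held by 199 members above it and by 232 barcodes below it, while 9012 base barcodes scored 0. The median score was 8.30 in Sitagliptin members and 8.32 in Control members, with maxima of 210.5 and 286.9. Because the score is a rate, 1 UMI reached the threshold in a barcode of up to 2393 UMIs and 2 UMIs in one of up to 4786. A single rule gene UMI made 94 of 335 Sitagliptin members (28.1%) and 53 of 171 Control members (31.0%). At least 5 rule gene UMIs were present in 153 Sitagliptin members (45.7%) and 79 Control members (46.2%), and at least 20 in 81 and 40.

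**Figure D1:**
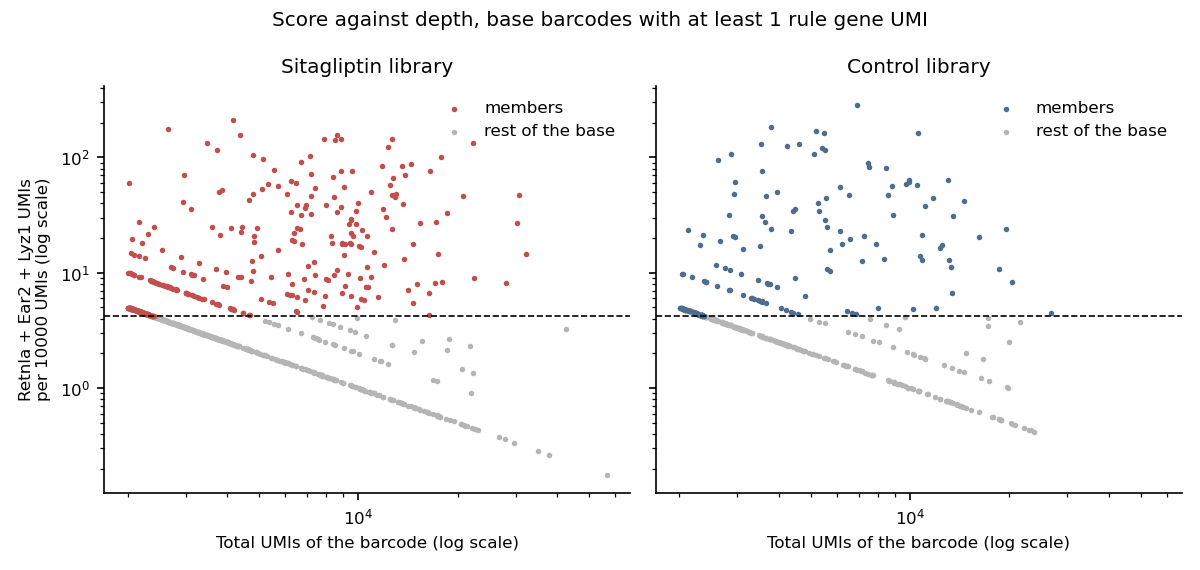
Score (UMIs of Retnla, Ear2 and Lyz1 per 10000) against total UMIs, both on log scales, for base barcodes with at least 1 rule gene UMI in the Sitagliptin library (left) and the Control library (right). The dashed line is the threshold of 4.18, and the lowest diagonal band of points holds barcodes with 1 rule gene UMI, which pass only up to 2393 UMIs.

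The libraries held 76788699 UMIs in Sitagliptin and 64139749 in Control, over 9766 and 8694 barcodes of at least 2001 UMIs each. Depth differed with the number of rule gene UMIs. Members had a median of 3783 UMIs in Sitagliptin and 3523 in Control, against 5770 and 5072.5 in the rest. Members with 5 or more rule gene UMIs had medians of 8616 and 6136 UMIs, and those with 1 to 4 had 2284 and 2320 UMIs. The 5-UMI line was drawn after the data were seen. Median mitochondrial shares of UMIs were 0.542% and 0.547% in members, against 0.578% and 0.536% in the rest. The libraries shared 132 barcode sequences, which covered 7 Sitagliptin members and 1 Control member, and no sequence was a member in both.

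Retnla led the score in most members. It had the most rule gene UMIs in 235 Sitagliptin members (70.1%) and 116 Control members (67.8%), Ear2 led in 61 and 34, Lyz1 in 19 and 14, and 20 and 7 were ties. Retnla was present at 4357 UMIs in Sitagliptin members and 2198 in Control members, which is 95.1% and 95.6% of the Retnla UMIs of the base. For Ear2 the counts were 845 and 327 UMIs (85.4% and 73.2% of the base), and for Lyz1 656 and 232 UMIs (88.1% and 77.6%). The RNA was concentrated in few barcodes. The 10 members with the most Retnla UMIs held 30.3% of the Retnla UMIs of Sitagliptin members and 39.4% of those of Control members, and the top 10 for Lyz1 held 51.5% and 56.9%.

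All 3 rule genes were detected together in 52 Sitagliptin members (15.5%) and 30 Control members (17.5%), against 0 of 5349 and 2 of 4264 barcodes of the rest, a contrast the score itself favours. Retnla alone was seen in 149 Sitagliptin members (44.5%) and 60 Control members (35.1%), Ear2 alone in 50 and 30, and Lyz1 alone in 11 and 9. The members with all 3 genes were deep, with medians of 8903 and 7285.5 UMIs. In these barcodes a Cd226 UMI was present in 57.7% of Sitagliptin and 40.0% of Control members, an Irf4 UMI in 59.6% and 56.7%, a Clec4b1 UMI in 67.3% and 70.0%, and an Lpl UMI in 76.9% and 50%.

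**Figure D2:**
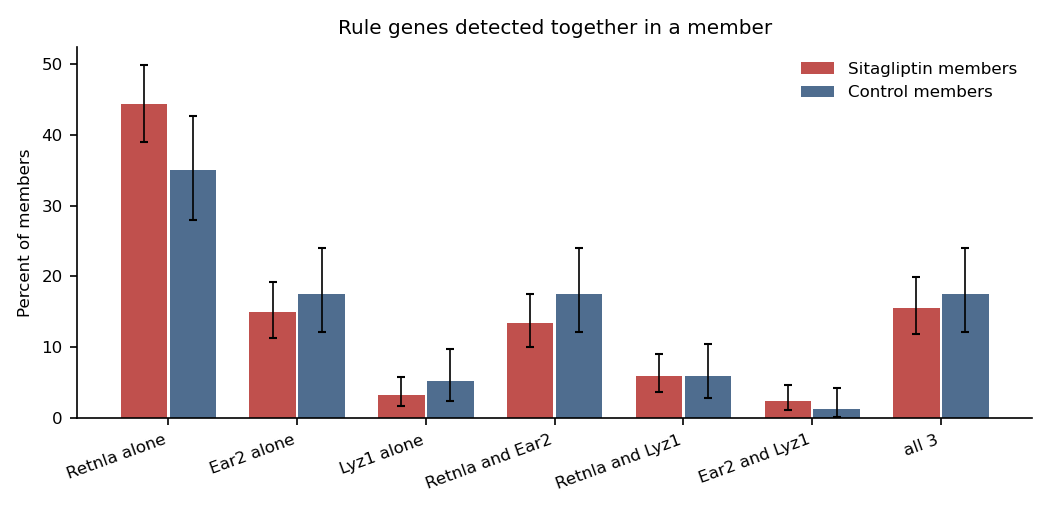
Percent of members in which each combination of the 3 rule genes was detected, for 335 Sitagliptin members and 171 Control members. Bars show the share and error bars its exact binomial interval (counting error only). Retnla alone is the most frequent combination in both libraries, and all 3 genes were seen in 15.5% of Sitagliptin and 17.5% of Control members.

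To set depth aside, every barcode was thinned to 2000 UMIs, below the lowest total in the files, so that none was left out. A Retnla UMI was then seen in 72.5% of Sitagliptin members and 69.6% of Control members (79.4% and 76.0% unthinned), against 1.81% and 1.17% of the rest (3.70% and 2.11% unthinned). T cell barcodes, defined by 2 or more UMIs of the T cell genes and at most 1 of the macrophage genes of the base rule, should lack the gene. They had a Retnla UMI in 0.906% of 331 barcodes in Sitagliptin and in 0 of 196 in Control, where a count of 0 allows a share of up to 1.53%, at median depths of 3372 and 3486.5 UMIs. The thinned share of the Control rest lay below what that count of 0 allows. The rule itself keeps Retnla low in the rest, so no conclusion on its level above background is drawn. Barcodes without Ptprc had a Retnla UMI in 7.0% and 3.72% at medians of 4812 and 7149.5 UMIs, but 51.7% and 43.2% of them also carried Lyz2 after thinning.

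Macrophage genes were read as shares and medians over the barcodes of each group. C1qa and Lyz2 are in the base rule and help define the T cell barcodes, so those contrasts were set in advance. Csf1r is in neither rule. At 2000 UMIs, a Csf1r UMI was in 44.8% of Sitagliptin and 43.3% of Control members, against 52.3% and 52.1% of the rest and 1.81% and 4.08% of T cell barcodes. A C1qa UMI was in 52.5% and 55.6% of members, against 59.8% and 61.8% of the rest and 1.51% and 1.53% of T cell barcodes. Csf1r, the receptor for the growth factor CSF1, had a median of 2.67 UMIs per 10000 over Sitagliptin members and 2.31 over Control members, against 3.60 and 3.56 over the rest. C1qa, a chain of complement C1q, had medians of 3.78 and 4.26 per 10000 in members, against 5.27 and 6.41 in the rest. Lyz2 had medians of 21.8 and 21.2, against 24.0 and 26.1. In sums over barcodes, given from here on as CPM, each gene's UMIs divided by all UMIs of the group and scaled to a fixed total, all 12 genes of a macrophage core list were lower in members than in the rest in both libraries, 9 of them past 1.5-fold in each. Of all genes with at least 20 UMIs, 61.5% in Sitagliptin and 54.4% in Control were lower, and 19.2% and 20.5% were lower past 1.5-fold. The median log2 ratio of the core list was −0.97 in Sitagliptin and −1.14 in Control, and the C1q genes and Lyz2 also belong to the base rule.

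Against the rest, 411 of 10020 genes (4.1%) were higher past 1.5-fold in both libraries and 661 (6.6%) were lower, counting genes with at least 100 UMIs in members and rest together in each library. Within the Sitagliptin library the shares were 7.99% higher and 15.1% lower, and within Control 10.4% and 16.6%. The median gene was itself shifted, by −0.13 on the log2 scale in Sitagliptin and −0.07 in Control. Scaled to that median gene, 536 genes were higher and 476 lower in both libraries, so the balance of higher and lower genes depends on the scaling.

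The genes most enriched in members, by the ratio nearer to 1 of the 2 libraries, were led by Clec4b1 and Cd226. Clec4b1, a C-type lectin receptor of myeloid cells, stood at 89.2 CPM in Sitagliptin members and 128.6 CPM in Control members, against 3.38 and 2.53 CPM in the rest. Cd226, which encodes the adhesion receptor DNAM-1, stood at 86.6 and 63.2 CPM in members, against 3.28 and 2.82 CPM in the rest. The ratios were 26.4 (20.9 to 33.5) in Sitagliptin and 22.4 (15.6 to 32.1) in Control for Cd226, and 26.4 (20.98 to 33.3) and 50.8 (37.4 to 69.4) for Clec4b1. Neither rested on 1 barcode, since Clec4b1 UMIs were in 80 Sitagliptin and 55 Control members, and Cd226 UMIs in 75 and 31. At 2000 UMIs per barcode, Clec4b1 was seen in 9.25% and 18.1% of members, against 0.73% and 0.61% of the rest, and in 0 of 331 Sitagliptin and 0.51% of Control T cell barcodes. Cd226 was seen in 8.06% and 6.43% of members, against 0.80% and 0.63% of the rest, but in 19.3% and 18.4% of T cell barcodes, which express it too.

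Irf4, a transcription factor that acts downstream of IL-4 in mouse macrophages and in dendritic cells, was at 81.5 CPM in Sitagliptin members and 64.3 CPM in Control members, against 8.38 and 5.42 CPM in the rest (9.73-fold and 11.9-fold). T cell barcodes carried Irf4 as well, in 6.04% and 10.7% at 2000 UMIs, against 7.46% and 9.94% of members. The part of T cell genes in the Cd226 and Irf4 values was not tested. Lpl, the secreted lipoprotein lipase, was at 181.4 and 109.1 CPM in members, against 15.8 and 14.6 CPM in the rest (11.5-fold and 7.47-fold). Pltp, the phospholipid transfer protein, was at 259.4 and 250.4 CPM, against 33.4 and 34.6 CPM (7.76-fold and 7.23-fold). These are ratios of sums, since the median of Lpl and of Pltp was 0 in members and in the rest of both libraries. Lpl UMIs were in 27.2% of Sitagliptin and 21.1% of Control members, and Pltp UMIs in 39.7% and 46.8%. Tmem176a and Tmem176b, a pair of membrane proteins of myeloid cells, were 6.52-fold and 5.45-fold higher in Sitagliptin and 8.28-fold and 7.34-fold higher in Control. Plxdc2, Kitl (the ligand of the receptor KIT), Tmtc2 and Oasl1 were between 3.15-fold and 6.05-fold higher across both libraries.

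Ccl17, a ligand of the chemokine receptor CCR4, was 7.22-fold higher in Sitagliptin members and 5.22-fold higher in Control members, but few barcodes carried it. It was seen in 31 Sitagliptin and 10 Control members, and 1 barcode held 170 of the 450 UMIs of Sitagliptin members and another 50 of the 96 UMIs of Control members. With the top 2% of the base as members the Control ratio was 0.413, and with Ear2 left out of the score it was 0.629, so its direction in Control depends on how members are drawn.

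**Figure D3:**
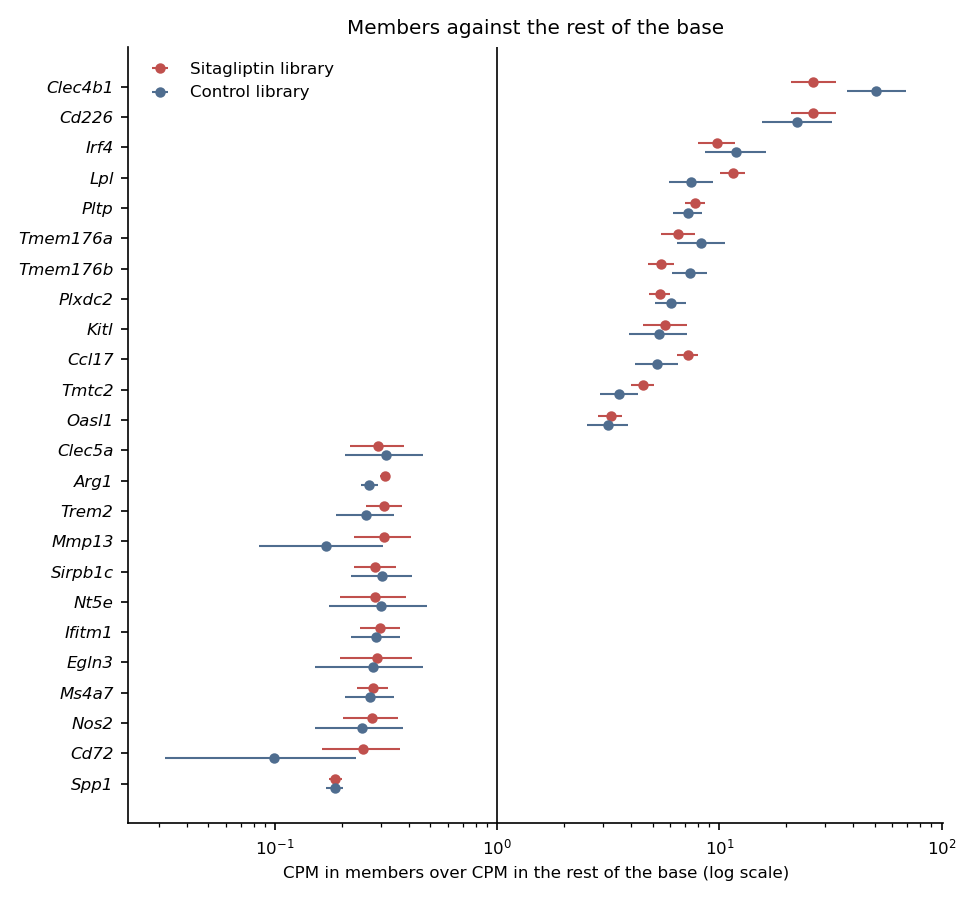
Ratio of CPM in members over CPM in the rest of the base (log scale) for the 12 genes with the highest and the 12 with the lowest ratio, in the Sitagliptin and Control libraries. Points are ratios and bars exact counting intervals. Clec4b1 and Cd226 stand at 22.4-fold or more in both libraries and Spp1 at 0.186 in both.

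By the same ranking the most depleted gene was Spp1, which encodes the secreted glycoprotein osteopontin. It stood at 437.8 CPM in Sitagliptin members and 577.7 CPM in Control members, against 2349 and 3108 CPM in the rest, a ratio of 0.186 in each library. Arg1, the arginase that is often listed beside Retnla as an IL-4 response gene, was lower in members, at 750.7 and 622.5 CPM against 2407 and 2341 CPM in the rest (ratios 0.312 and 0.266). Chil3, another gene of that list, was also lower, at 0.467 and 0.514. Trem2, a lipid-sensing receptor of macrophages, was at 58.6 and 52.8 CPM in members, against 188.8 and 205.8 CPM in the rest. Cd72, Nos2 (inducible nitric oxide synthase), Ms4a7, Egln3 (an oxygen-sensing prolyl hydroxylase), Ifitm1, Nt5e (the ectonucleotidase CD73), Sirpb1c, Mmp13 and Clec5a were the other genes at the lower end, at ratios between 0.0988 and 0.316.

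Antigen presentation genes of MHC class II stood higher in the sum over members, but unevenly among them. Of 10 genes, 9 were higher in each library, 6 past 1.5-fold in Sitagliptin and 3 in Control, where 1 was lower past it, and the median log2 ratio of the list was 0.69 and 0.46, against −0.13 and −0.06 over all genes with at least 20 UMIs. H2-Ab1 was at 1438 CPM in Sitagliptin members and 1293 CPM in Control members, against 875.2 and 903.5 CPM in the rest. H2-DMb2, an accessory chain of peptide loading, was 3.74-fold and 3.65-fold higher, and Ciita, the master activator of these genes, 2.41-fold and 1.92-fold. H2-Oa, with 3 and 1 UMIs in members, was the exception. Members led by Retnla, the majority, summed to 12335 and 17374 CPM over the list, against 11562 and 13268 CPM in the rest, and members led by Ear2 to 29048 and 17203 CPM. In Retnla-led members H2-Aa was at 1607 and 2405 CPM, against 1602 and 1805 CPM in the rest, so in Sitagliptin it was higher mainly in the other members. Over all genes with at least 20 UMIs, 12.3% were higher past 1.5-fold in Sitagliptin and 15.4% in Control. Of the MHC class I genes, 13 of 15 were lower in each library, none of them past 1.5-fold, where 61.5% and 54.4% of all genes were lower. The median log2 ratio of that list was −0.17 and −0.29.

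Genes of the serous cavity and resident-like list were mixed. In Sitagliptin 11 of 22 were higher past 1.5-fold and 4 lower, and in Control 9 of 20 were higher and 6 lower, with medians of 0.67 and 0.51 (log2), beside the 12.3% and 15.4% higher past 1.5-fold over all genes. Fcrls was at 167.2 CPM in Sitagliptin members and 158.5 CPM in Control members, against 60.5 and 31.2 CPM in the rest. Folr2, a folate receptor, was 1.71-fold and 1.498-fold higher, and Mgl2, a galactose-binding lectin, 2.69-fold and 2.65-fold. Cd209f and Cd209d were 9.97-fold and 22.1-fold higher in Sitagliptin and 40.7-fold and 17.6-fold higher in Control, from 23 and 13 UMIs in Sitagliptin members and 24 and 6 in Control members. Cd163, a haemoglobin scavenger receptor, was 11.4-fold and 7.44-fold higher, the Control value from 6 UMIs in 3 barcodes. Other genes of the list went the other way, among them Pf4 (0.368 and 0.302), Stab1 (0.351 and 0.325) and Mertk (0.517 and 0.594). Timd4, a marker of long-lived resident macrophages, was at 4 UMIs in Sitagliptin members and 0 in Control members.

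Over all genes with at least 20 UMIs, 61.5% were below 1 in Sitagliptin and 54.4% in Control, and the counts of lower genes that follow stand beside those shares. The list of lipid-associated macrophages was lower, with 15 of 18 genes lower in Sitagliptin and 14 of 18 in Control and medians of −1.01 and −0.84. Fabp5, Apoe, Cd68 and Ctsl were lower past 1.5-fold in both libraries. Lpl, above, and the scavenger receptor Cd36, at 2.19-fold and 1.83-fold, were higher within this list. In the list of glycolysis and hypoxia, 20 of 22 genes were lower in Sitagliptin members and 19 of 22 in Control members, with Gapdh at 0.547 and 0.503 and Ldha at 0.709 and 0.654. Complement and pattern recognition genes were lower for 15 and 16 of 19, and C4b, a complement component, was 8.34-fold and 9.48-fold higher. Inflammatory cytokines and chemokines were lower for 18 and 20 of 25, while Il6 was 3.78-fold and 2.48-fold higher and Il10 1.83-fold and 4.60-fold higher. Past 1.5-fold, 11 and 15 of the 25 inflammatory genes were lower, against 19.2% and 20.5% of all these genes. The alternative activation list was mixed, with 21 of 30 genes higher in Sitagliptin and 14 of 30 in Control, where 38.5% and 45.6% of all these genes were. Of the 30, 10 and 7 were higher past 1.5-fold, against 12.3% and 15.4% of all genes. Another 7 in each library were lower past it, and the median log2 ratios were 0.19 and −0.09.

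Markers of other cell types were read in the same sums. The neutrophil list summed to 85.1 CPM in Sitagliptin members and 83.8 CPM in Control members, against 154.8 and 216.9 CPM in the rest, and Cxcr2 had 0 UMIs in members. Of the eosinophil list, 7 of 11 genes had 0 UMIs in members of each library, Ccr3 had 0 UMIs and 1 UMI, and Il1rl1 and Rnase2a were the 2 measured genes, both higher in members. Of the alveolar macrophage list, Car4 had 0 UMIs and 1 UMI and Marco had 0 in both, while Pparg was 2.57-fold and 3.10-fold higher. The T and NK cell list summed to 183.5 and 166.5 CPM in members, against 129.1 and 213.1 CPM in the rest. It was low in members with 5 or more rule gene UMIs, at 64.5 and 67.1 CPM, and high in those with 1 to 4, at 526.1 and 400.0 CPM. Cd2 differed from the rest of that list, at 36.4 and 31.1 CPM in the members with 5 or more rule gene UMIs, against 4.98 and 5.95 CPM in the rest of the base. The dendritic cell list was higher for 10 of 15 genes in Sitagliptin and 6 of 14 in Control, where 38.5% and 45.6% of all genes were higher. Past 1.5-fold, 9 and 6 were higher, against 12.3% and 15.4% of all genes, and 2 and 4 were lower, against 19.2% and 20.5%. The median log2 ratios were 0.87 and 0.59, the Control value without 3 genes that had 0 UMIs on 1 side. Batf3 was at 3.798-fold and 5.66-fold. Flt3, a defining receptor, was at 0.998 and 0.792, from only 7 UMIs in Sitagliptin members and 3 in Control members. The part of these other cell types in the member values was not tested.

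The leading enriched genes were highest in members with many rule gene UMIs. Cd226 was at 112.6 CPM in Sitagliptin and 81.9 CPM in Control members with 5 or more rule gene UMIs, at 11.9 and 19.2 CPM in members with 1 to 4, and at 3.28 and 2.82 CPM in the rest. Clec4b1 followed the same order at 115.3 and 175.2 CPM, 13.8 and 19.2 CPM, and 3.38 and 2.53 CPM. Lpl stood at 234.8 and 150.7 CPM, at 27.7 and 11.5 CPM, and at 15.8 and 14.6 CPM. For Lpl the Control members with 1 to 4 UMIs lay below the rest, but on too few UMIs to give a direction. Of the 95 Lpl UMIs of Control members, 92 lay in those with 5 or more. H2-Aa was at 2518 and 2779 CPM in members with 5 or more, at 1541 and 1777 CPM in those with 1 to 4, and at 1602 and 1805 CPM in the rest. Spp1 was at 257.4 and 448.7 CPM in members with 5 or more and at 957.2 and 880.7 CPM in those with 1 to 4, both below the rest. C1qa did not follow the score, at 545.1 and 514.2 CPM in the first set and 581.5 and 538.4 CPM in the second.

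The leading gene divided the members further, by a set of genes picked after their values were seen. Members led by Retnla with 5 or more rule gene UMIs (119 Sitagliptin, 67 Control) had Lpl at 259.3 and 168.9 CPM and Ccl17 at 49.3 and 7.77 CPM. Members led by Ear2 with 5 or more (25 and 8) had Mgl2 at 1284 and 765.1 CPM, where 1 barcode held 47 of 323 UMIs in Sitagliptin and another 27 of 54 in Control. Their H2-Aa was at 5488 and 3698 CPM, against 1768 and 2684 CPM in the Retnla-led members with 5 or more and 1013 and 1213 CPM in those with 1 to 4. Their Ccl17 was at 1471 and 552.6 CPM, but 1 barcode held 170 of the 370 UMIs in Sitagliptin and another 37 of the 39 in Control. Among Control members led by Lyz1 with 1 to 4 UMIs, 1 barcode held all 50 Ccl17 UMIs. These Ear2-led barcodes also carried Cd226, at 151.1 and 56.7 CPM (38 and 4 UMIs), and Clec4b1, at 202.8 and 127.5 CPM. Their dendritic cell list summed to 668.1 and 340.0 CPM, against 505.6 and 677.7 CPM in the Retnla-led members with 5 or more. Cd209a of that list had 26 UMIs in Sitagliptin (103.4 against 9.29 CPM) and 0 in Control. C1qa was at 326.1 and 382.6 CPM, against 611.5 and 469.9 CPM, and the macrophage core list at 3718 and 3599 CPM. Whether the label of macrophage holds for all of them was not tested.

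Members led by Ear2 with 1 to 4 rule gene UMIs (36 Sitagliptin, 26 Control) had another profile, rich in nonclassical monocyte genes. Ace, the angiotensin-converting enzyme that marks mouse Ly6C-low monocytes, was at 96.4 and 184.0 CPM there (12 and 14 UMIs), and had 1 UMI in each library in members led by Retnla with 5 or more. Adgre4 was at 120.5 and 197.2 CPM and Pglyrp1 at 144.7 and 210.3 CPM. Plac8, a monocyte gene, was at 843.8 and 1288 CPM. The nonclassical monocyte list summed to 2451 and 3615 CPM in these barcodes, against 925.7 and 963.1 CPM in the Retnla-led members with 5 or more. Cd226 was at 1 UMI in Sitagliptin and 0 UMIs in Control of these barcodes. The macrophage core list was at 4597 and 3102 CPM, against 4567 and 4231 CPM in the Retnla-led members with 5 or more. With these monocyte genes, the label of macrophage may not hold for all of these barcodes.

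**Figure D4:**
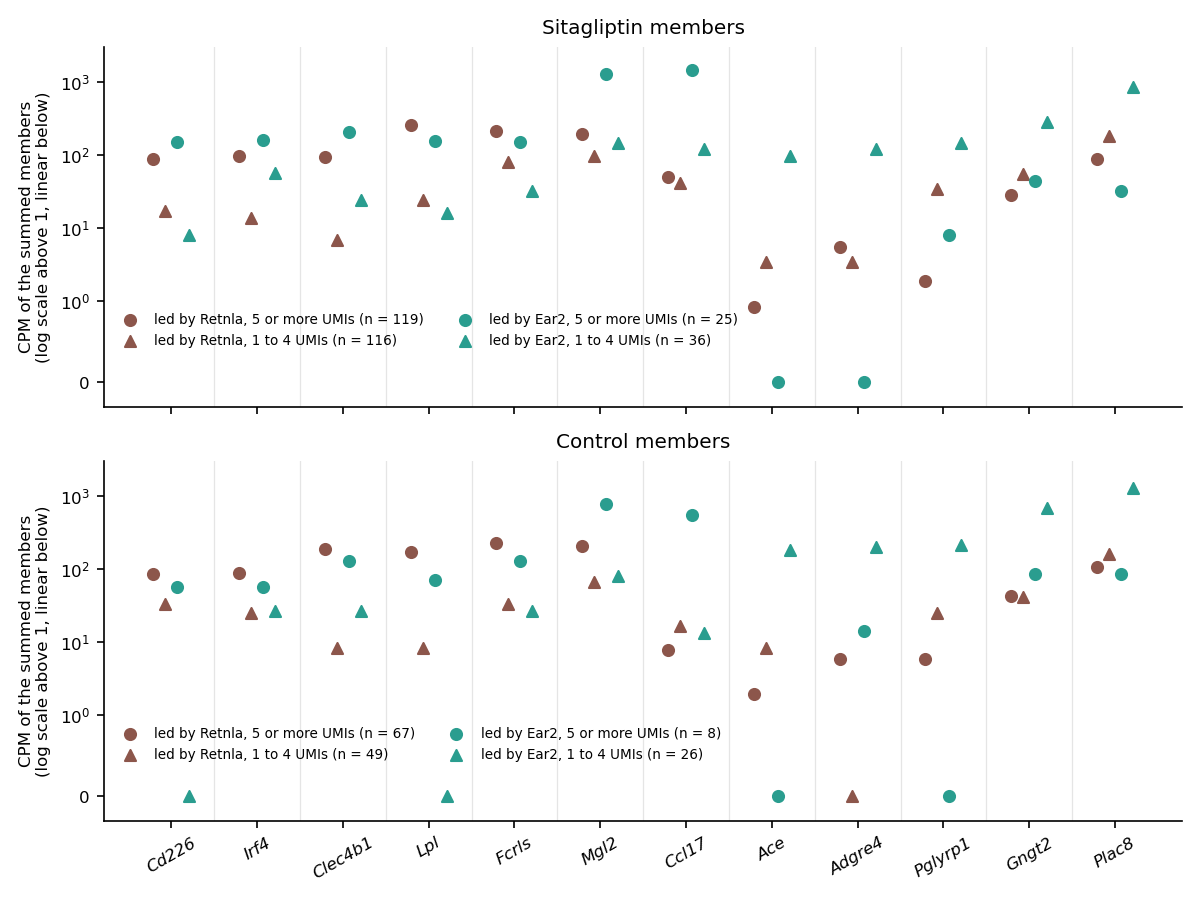
CPM (log scale above 1) of 12 genes in Sitagliptin members (top) and Control members (bottom), summed over members led by Retnla or by Ear2 and split by rule gene UMIs. Ace, Adgre4, Pglyrp1, Gngt2 and Plac8 are highest in members led by Ear2 with 1 to 4 UMIs, and Mgl2 and Ccl17 in members led by Ear2 with 5 or more.

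Members made up 5.89% (5.30 to 6.54) of base barcodes in the Sitagliptin library, against 3.86% (3.31 to 4.46) in Control. The ratio of shares was 1.53 (1.28 to 1.83), an interval for counting error that holds no spread between mice. Of all barcodes, members were 3.43% in Sitagliptin and 1.97% in Control. Outside the base the same threshold was reached by 3.72% and 2.51% of barcodes, a ratio of 1.48 (1.16 to 1.89). The ratio was 1.70 in barcodes with a UMI of the T cell genes (4.37% and 2.56%). It was 1.875 in barcodes without Ptprc (4.59% and 2.45%). The higher share in Sitagliptin was thus not confined to the base. Barcodes with 20 or more rule gene UMIs were 1.43% of the base in Sitagliptin and 0.902% in Control. A Retnla UMI was in 8.16% of base barcodes in Sitagliptin and 4.96% in Control. For Ear2 the shares were 4.61% and 4.10%, and for Lyz1 2.94% and 2.44%. When the score was computed without Retnla, the ratio of shares was 1.15, over 506 members chosen that way, of which 289 were among those reported here. In sums over members, fewer carrying cells and less RNA per cell cannot be told apart, and the diet cannot be told apart from the library.

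Among members the rule genes differed by less than 1.5-fold between the libraries. Members of both libraries had to pass the same score threshold on these genes, so this likeness is only a description. Retnla was at 2220 CPM in Sitagliptin members and 2524 CPM in Control members, Ear2 at 430.6 and 375.6 CPM, and Lyz1 at 334.3 and 266.5 CPM. The ratios were 0.880 (0.835 to 0.926), 1.15 and 1.255. With Sitagliptin over Control, 133 of 3898 genes (3.41%) were higher past 1.5-fold in members and 240 (6.16%) lower, counting genes with at least 100 UMIs in members of both libraries together. Scaled to the median gene, 178 were higher and 166 lower.

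Ccl24, an eosinophil-attracting chemokine and ligand of CCR3, stood at 126.4 CPM in Sitagliptin members and 35.6 CPM in Control members, a ratio of 3.55 (2.44 to 5.34), against 1.48 in the rest. It was seen in 45 Sitagliptin members and 21 Control members, and 1 barcode held 44 of the 248 Sitagliptin UMIs. Cbr2, a carbonyl reductase of resident-like macrophages, was at 54.5 and 16.1 CPM, a ratio of 3.39 (1.94 to 6.41), against 1.46 in the rest. Plau, the urokinase plasminogen activator, was at 93.3 and 42.5 CPM (2.19), Tmem56 at 107.0 and 40.2 CPM (2.66), Alas1, an enzyme of haem synthesis, at 73.4 and 36.8 CPM (1.997), and Prkd3 at 61.7 and 31.0 CPM (1.99). Prkd3 was the 1 gene of the 12 highest whose ratio lay on the other side of 1 in the rest, at 0.980. Hist1h2an and Polr2l completed the list at 2.04 and 2.03. The Plau ratio was 0.975 when Retnla was left out of the score.

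Of the 12 highest genes, 11 were also above 1 in the rest, against 32.1% of all genes with at least 100 UMIs there. In the rest 6 of the 12 passed 1.5-fold, but the share of all genes past it was not counted. Among the 6 were Ccl17 at 1.503 and Cxcl13, from 20 UMIs in Sitagliptin against 0 in Control. Tmem56 stood at 1.63 and Polr2l at 1.66 in the rest, and without Ptprc these 2 stood at 1.62 and 1.75. Also without Ptprc, Zbed5 stood at 47.9 (172.9 against 3.61 CPM), Ccl17 at 2.75 and Cdk8 at 2.17, while Ccl24 stood at 0.668. Zbed5 had 207 UMIs in Sitagliptin members (105.5 CPM) and 0 in Control members, at least 30.6-fold higher against a floor of 3 counts over the group, and 122.8 against 1.35 CPM in the rest. Cdk8 was at 3094 CPM in Sitagliptin members and 1576 CPM in Control members, a ratio of 1.96, and at 2.15 in the rest. Cxcl13, a B cell-attracting chemokine, had 171 UMIs in Sitagliptin members and 0 in Control members, and 168 of the 171 lay in 1 barcode. Ccl17 was at 2.08, with 280 of its 450 Sitagliptin UMIs outside the top barcode.

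The 12 genes with the lowest ratio, from Cenpf at 0.371 to Upp1 at 0.451, were lower in the Sitagliptin library in the rest as well, 12 of 12, with ratios between 0.398 and 0.822. That count stands beside 67.9% of all genes with at least 100 UMIs that were below 1 in the rest. Cald1, an actin-binding protein abundant in stromal and tumour cells, was at 118.2 CPM in Sitagliptin members and 280.2 CPM in Control members. In barcodes without Ptprc it was at 790.3 and 871.0 CPM. The other 11 genes, Htra1, Aebp1, Pcolce, Ccn1, Ly6c1, Tnnt2, Dnajb1, Armh3, Upp1 and the cell cycle genes Cenpf and Cks1b, were likewise higher in barcodes without Ptprc than in members of the same library. The MC38 epithelial and stromal list summed to 150.3 CPM in Sitagliptin members and 233.2 CPM in Control members, and to 128.0 and 167.9 CPM in the rest. Its part in these ratios was not tested.

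**Figure D5:**
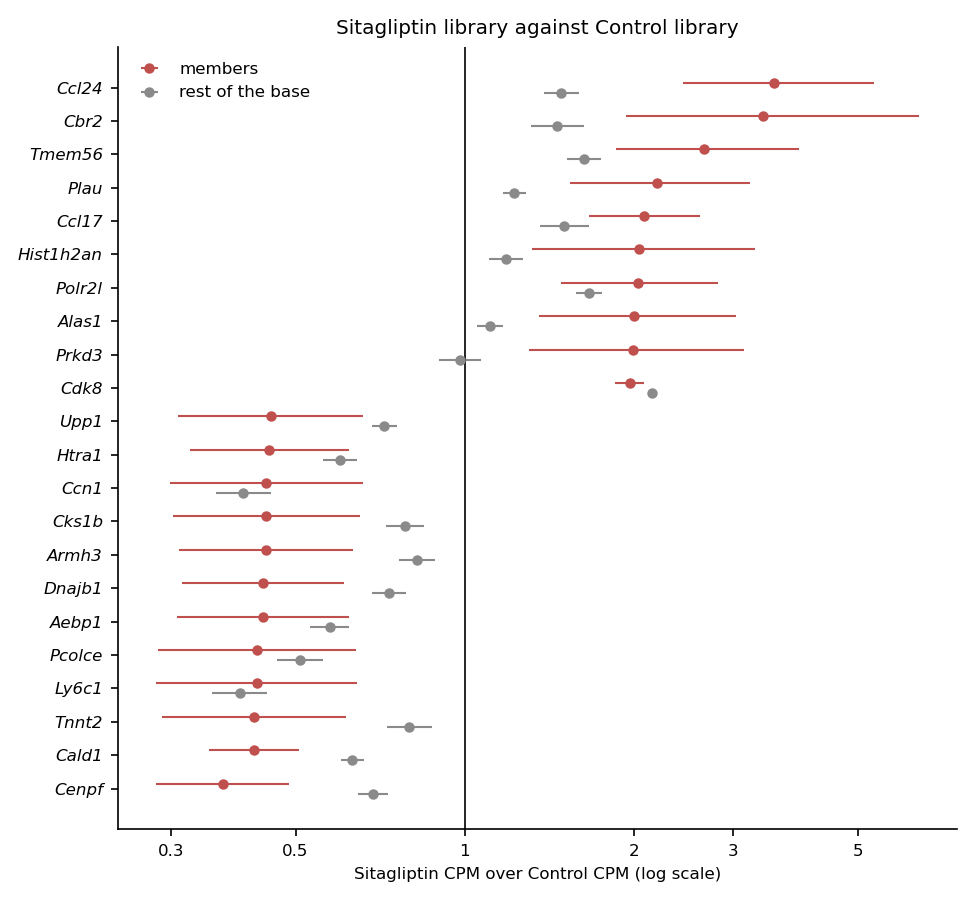
Ratio of Sitagliptin over Control CPM (log scale) in members and in the rest of the base, for the 12 genes with the highest and the 12 with the lowest ratio in members, without Cxcl13 and Zbed5, which had 0 UMIs in Control members. Points are ratios and bars exact counting intervals. Ccl24 and Cbr2 stand at 3.55 and 3.39 in members, and all 12 low genes lie below 1 in both groups. In the rest, 67.9% of all genes with at least 100 UMIs were below 1.

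By list, the alternative activation genes were higher in Sitagliptin members for 24 of 30 genes, 5 past 1.5-fold and 3 lower past it, with a median log2 ratio of 0.33, against −0.11 over all genes with at least 20 UMIs in members and 0.08 for the list in the rest. Over all those genes 6.87% were higher past 1.5-fold and 14.7% lower. Mrc1, the mannose receptor, was at 755.3 CPM in Sitagliptin members and 559.3 CPM in Control members (1.35) and at a ratio of 1.246 in the rest, and Mgl2 was at 1.43 and 1.41. Inflammatory cytokines and chemokines were higher for 18 of 24 genes in Sitagliptin members, 5 past 1.5-fold and 2 lower past it, with Cxcl1 (1.55), Cxcl3 (1.57) and Ccl9 (1.57) among the higher, where 39.7% of all genes were higher in members. In the rest 18 of 25 were lower, where 65.3% of all genes were. Il10 was lower, at 19.4 CPM in Sitagliptin members and 37.9 CPM in Control members. MHC class II genes were split, 4 higher and 4 lower of 8, and no macrophage core gene but Fcgr1, at 1.51, passed 1.5-fold. Ccl8, a monocyte-attracting chemokine, was at 376.1 and 203.3 CPM (1.85) in members and at 0.905 in the rest.

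Dpp4, the target of sitagliptin, was low in members and lower in the rest. It had 24 UMIs in Sitagliptin members (12.2 CPM) and 13 in Control members (14.9 CPM), against 4.55 and 5.77 CPM in the rest. Members with a Dpp4 UMI numbered 20 of 335 in Sitagliptin and 10 of 171 in Control, and the ratio between the libraries was 0.819 (0.401 to 1.75). After thinning, the shares were 2.09% and 2.92% in members, against 1.2526% and 1.48% in the rest and 14.2% and 8.67% in T cell barcodes. Dpp8, Dpp9 and Dpp7, related peptidases of the cell interior, had ratios of members over the rest between 0.428 and 1.20.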

How the data were processed

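Droplet 5′ RNA-seq libraries of CD45+ MC38-OVA tumour cells, 1 per diet, were taken as deposited. The authors deposited raw UMI counts per gene and barcode for 32285 gene IDs, and the lowest total was 2001 UMIs. The sources used here do not give the aligner, the genome build or the counting of shared reads. Groups came from the treatment label of each sample.

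Members and gene lists were chosen with earlier results of these data known. UMIs were summed over members and over the rest in each library and given as CPM, with exact Poisson intervals, exact conditional intervals for ratios of counts, Clopper-Pearson intervals for shares and log-normal intervals for ratios of shares. All are at 95% and cover counting error only. With 1 library per diet no test was run and no p-value is given, and a gene was counted as higher or lower past a ratio of 1.5.

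Named genes were the 12 highest and 12 lowest ratios among genes with at least 100 UMIs and 50 CPM on the higher side, for members against the rest by the library nearer to 1, and for Sitagliptin against Control in members. The rule genes, their near copies, Dpp4 and up to 6 genes of each of 30 lists with at least 20 UMIs were added, while mitochondrial, ribosomal, antigen receptor, unnamed and sex-linked genes stayed out of the rankings. Other genes named were chosen after their values were seen, and so were the splits by UMI number. The 30 lists were counted over genes with at least 20 UMIs. Scrublet gave 0 automatic doublet calls in each library, a value that would read the same had no automatic threshold been set. Doublets were kept, and an alternative left out the highest 6% of scores. The ratio code was checked on simulated data. Python 3.11.15, numpy 2.4.6, scipy 1.17.1, pandas 2.3.3, scanpy 1.11.5 and matplotlib 3.10.9 were used.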

Additional observations from a re-analysis of the deposited data

Results flagged for a closer look

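Some genes had a ratio of Sitagliptin over Control in members on the other side of 1 from the rest of the base, with counting intervals of the 2 ratios apart, and these differences were not tested across replicates. In members, Cd209a was at 2.12 (0.664 in the rest), Fcgr1 at 1.51 (0.925), Fcgr3 at 1.18 (0.965), H2-Ab1 at 1.11 (0.969), Lyz2 at 1.07 (0.824) and Mki67 at 1.48 (0.909). Ifit1 was at 0.504 in members and 1.26 in the rest. Cd209a rested on 43 UMIs in 20 Sitagliptin members, 15 of them in 1 barcode, and on 9 UMIs in 7 Control members. For Ifit1 the counts were 25 UMIs in 13 Sitagliptin members and 22 UMIs in 12 Control members, 7 of the 22 in 1 barcode.

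The ratio of members over the rest differed in direction between the libraries for 2 genes, also with no test across replicates. Mki67, a proliferation gene, was at 1.19 in Sitagliptin and 0.736 in Control, and Plac8 was at 0.883 in Sitagliptin and 1.23 in Control.

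Barcodes outside the base entered the report only as T cell barcodes, as barcodes without Ptprc and in shares that reached the member threshold. Of all those outside, 3.72% in Sitagliptin and 2.51% in Control reached the same score of Retnla, Ear2 and Lyz1, a ratio of 1.48.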

How the results depend on the processing

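No paired analysis was possible because each diet has 1 library, and for the same reason no replicate could be left out. The ratio of member shares was 1.15 with a score without Retnla and lay between 1.38 and 1.61 under the other alternatives. With the top 2% as members, Retnla led in 83.8% of Sitagliptin and 87.7% of Control members, 1306 genes were lower in members in both libraries, and 82 were higher and 83 lower in Sitagliptin members. With the top 10%, Retnla led in 63.5% and 55.1%, 207 genes were lower in members, and 362 were lower in Sitagliptin members. With at least 5 rule gene UMIs, an alternative chosen after seeing the data, these values were 77.8%, 84.8%, 1049 and 157. With the thinned score, 333 genes were lower in members. A gene minimum of 20 UMIs gave 730 higher and 1033 lower in members, and 578 higher and 1239 lower in Sitagliptin members. A fold of 2 gave 141, 206, 11 and 31. Directions turned for Ccl17 in Control members against the rest (0.413 with the top 2%, 0.629 without Ear2 in the score), for Plau between the libraries (0.975 without Retnla) and for the median of the serous cavity list in Sitagliptin (−0.30 without Retnla); the cause was not tested. Of 624 values for named genes of members against the rest, 362 stayed within their counting interval and 260 moved. Of 286 for the diets, which leave out Cxcl13 and Zbed5 for their 0 in Control members, 247 stayed and 38 moved, and of 468 list medians 337 stayed within the counting error of the median and 130 moved. Genes of few UMIs are limited by depth.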
